A study of Mus musculus with 2 samples.

Results

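Interferon response genes are the genes a cell switches on after it senses interferon, and 35 of them, chosen by symbol, were described here in single cells of the mouse molar tooth germ. All 35 symbols were found among the 31253 features of both libraries. The cells came from the mandibular first molars of newborn C57black/B6 mice. The control library was made from Edarfl/fl mice, which carry Edar alleles that Cre can delete and for which the labels name no Cre. The deletion library was made from K14cre;Edarfl/fl mice, in which Cre is driven by the promoter of keratin 14, a gene of epithelial cells. Both libraries therefore carry the floxed allele, and mice with K14cre alone are not analysed here. Each genotype has 1 library. No p-value was computed, every interval is a 95% interval that covers counting error only, and genotype, litter, dissociation and library cannot be told apart. The labels do not give the number of pups in a library.

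Interferons bind surface receptors whose JAK kinases phosphorylate STAT proteins. Type I interferons act mainly through a complex with STAT2 and IRF9 that binds the interferon-stimulated response element (ISRE), and interferon gamma mainly through the gamma-activated site (GAS). The induced genes encode transcription factors that amplify the response, antiviral effectors, cytosolic RNA sensors, chemokines that attract T cells, GTPases that attack intracellular parasites, and parts of the antigen processing machinery. A low level of this programme without infection is well known in macrophages and in vessel walls. Edar is the receptor of ectodysplasin in epithelial buds of teeth, hair and glands, and signals to NF-kB.

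The libraries held 73375441 and 62158879 unique molecular identifiers (UMIs) in 13990 and 16029 barcodes, and 13253 control and 15247 deletion cells were kept, with medians of 4444 and 3329 UMIs. The libraries shared 4 barcodes. Cells were clustered without interferon genes and named from marker genes. The 4 classes with most UMIs of the members or most cells were epithelium-like (2274 control and 1887 deletion cells), mesenchyme-like (8481 and 10996), endothelium-like (1225 and 985) and macrophage-like (566 and 532). Edar stood at 34.6 and 21.2 CPM (UMIs scaled to the depth of the class and library) in epithelium-like cells, with a count ratio of 0.501 to 0.744, and at 1.38 and 1.44 CPM in mesenchyme-like cells. Which exons are floxed is not given in the sources used here, and these counts come from transcript ends, so reads outside the deleted exons would still be counted.

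The promoters of 6 members are shown because these genes stood higher in the deletion library in mesenchyme-like or endothelium-like cells, and because each holds a motif of the pathway. Each line gives the 250 bases before the transcript start, in RefSeq's GRCm38.p6 sequence, read 5′ to 3′ on the strand of the gene. Capitals mark the ISRE core GAAANNGAAA or the GAS motif TTCNNNGAA, each searched on both strands. The windows are chr5:92348890-92349139 (minus strand) for Cxcl10, chr11:53769764-53770013 (plus) for Irf1, chr11:48871421-48871670 (minus) for Irgm1, chr10:128270248-128270497 (plus) for Stat2, chr4:156200819-156201068 (minus) for Isg15 and chr19:34640639-34640888 (plus) for Ifit1.
Cxcl10: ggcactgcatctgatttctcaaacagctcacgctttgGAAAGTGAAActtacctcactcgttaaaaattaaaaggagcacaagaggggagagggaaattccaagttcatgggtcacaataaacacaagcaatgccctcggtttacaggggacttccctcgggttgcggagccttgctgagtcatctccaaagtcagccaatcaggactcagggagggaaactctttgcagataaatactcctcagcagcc
Irf1: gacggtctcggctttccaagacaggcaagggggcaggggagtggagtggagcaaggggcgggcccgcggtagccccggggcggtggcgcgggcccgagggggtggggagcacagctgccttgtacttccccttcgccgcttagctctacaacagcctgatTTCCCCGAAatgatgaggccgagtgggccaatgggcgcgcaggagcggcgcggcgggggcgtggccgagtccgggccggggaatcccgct
Irgm1: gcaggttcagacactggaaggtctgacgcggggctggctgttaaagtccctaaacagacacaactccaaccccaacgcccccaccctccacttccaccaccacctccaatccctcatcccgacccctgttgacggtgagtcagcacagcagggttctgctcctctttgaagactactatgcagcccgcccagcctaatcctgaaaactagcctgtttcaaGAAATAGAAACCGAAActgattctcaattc
Stat2: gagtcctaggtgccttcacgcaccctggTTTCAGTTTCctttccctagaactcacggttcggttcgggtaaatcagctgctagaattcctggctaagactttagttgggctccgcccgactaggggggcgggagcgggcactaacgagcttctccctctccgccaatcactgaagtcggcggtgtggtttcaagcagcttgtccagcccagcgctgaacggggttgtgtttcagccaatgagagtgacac
Isg15: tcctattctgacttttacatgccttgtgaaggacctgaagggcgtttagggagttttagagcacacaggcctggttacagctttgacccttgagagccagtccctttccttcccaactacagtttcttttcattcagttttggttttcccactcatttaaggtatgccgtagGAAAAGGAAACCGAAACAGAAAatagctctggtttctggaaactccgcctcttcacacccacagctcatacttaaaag
Ifit1: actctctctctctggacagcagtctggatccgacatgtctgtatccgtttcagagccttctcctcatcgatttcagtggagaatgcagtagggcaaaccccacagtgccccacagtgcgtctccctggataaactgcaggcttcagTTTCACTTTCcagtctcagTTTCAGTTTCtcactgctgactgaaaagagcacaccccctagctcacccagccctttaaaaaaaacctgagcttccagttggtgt

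The ISRE core began 213 bases before the start in Cxcl10 and 222 bases before it in Stat2. Irgm1 held overlapping cores at 30 and 24 bases, Isg15 overlapping cores at 78, 72 and 66 bases, and Ifit1 cores at 104 and 85 bases. Irf1 held no ISRE core and 1 GAS motif, 90 bases before its start. Another Irf1 promoter entry, at chr11:53770223-53770522, held neither motif, and the entry shown was chosen because it held more matches. No ISRE core overlapped a GAS motif in these windows. RefSeq promoters of 300 bases were at hand for 30 of the 35 members (not for Iigp1, Rtp4, Usp18, Zbp1 and Parp14). The ISRE core was in 18 of the 30 (60.0%) and in 1079 of 27025 genes with a promoter entry (3.99%). The GAS motif was in 10 of the 30 (33.3%) and in 9.55% of all genes. A window of Cxcl9, which also stood higher in endothelium-like cells, held neither string. A match describes letters and does not show that a factor binds there.

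The cell class set the level of these genes far more than the library did. For 33 members, all but the widely expressed B2m and Ifitm3, the summed level was 55.8 CPM in control and 66.5 CPM in deletion epithelium-like cells. Mesenchyme-like cells had 168 and 318 CPM, mural-like cells 546 and 940, endothelium-like cells 1181 and 1830, and macrophage-like cells 1563 and 1846. The deletion library stood higher in each of these 5 classes. The log2 ratio of deletion over control was 0.90 in mesenchyme-like cells (count ratio 1.84 to 1.94), 0.78 in mural-like cells (1.56 to 1.90) and 0.63 in endothelium-like cells (1.5 to 1.61). It was 0.24 in macrophage-like cells (1.14 to 1.22) and 0.23 in epithelium-like cells (1.05 to 1.35), the class that K14cre targets. In epithelium-like cells the interval included 0 with equal sub-cluster weights (0.08, -0.13 to 0.30). Thinned to 1900 UMIs per cell, the macrophage-like ratio was 0.045 with an interval that included 0.

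**Figure D1:**
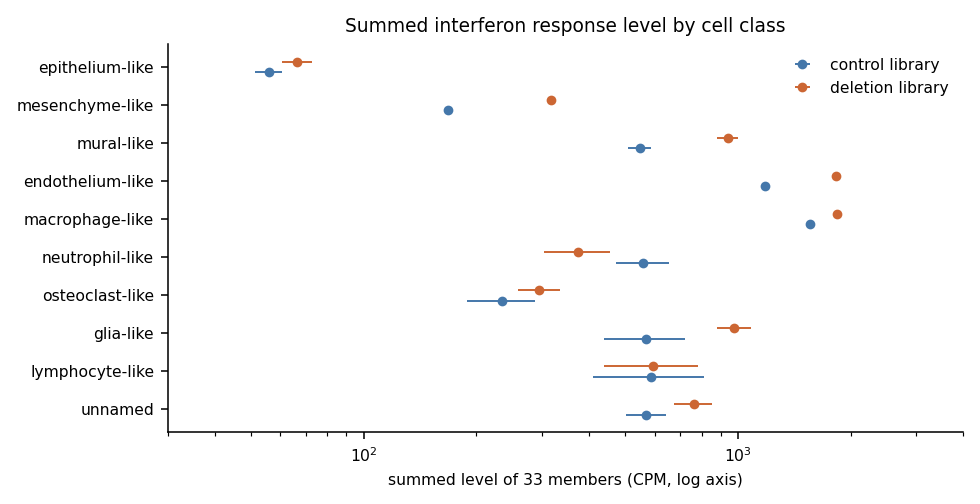
Summed level of 33 interferon response genes (CPM, log axis) in each cell class and library. Points are sums over the cells of 1 library and bars are exact Poisson 95% intervals of the count. The deletion library lies above the control library in epithelium-like, mesenchyme-like, mural-like, endothelium-like and macrophage-like cells and below it in neutrophil-like cells (558 and 373 CPM).

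Smaller classes did not all point the same way. Glia-like cells had 569 and 978 CPM on 66 and 366 UMIs of the 33 members. An unnamed class led by Ly6c2 and Ccr2 had 568 and 763 CPM. Osteoclast-like cells (234 and 295 CPM) and lymphocyte-like cells (586 and 594 CPM) had count ratio intervals that included 1. In neutrophil-like cells the deletion library was lower, at 558 and 373 CPM on 155 and 97 UMIs. By the size rule given next, 1 of 17 members that reached 10 CPM was called lower there, Irf1, and 0 higher, against 3.14% and 6.68% of all genes. In mural-like cells 4 of 18 such members (Irf1, Cxcl10, Irgm1 and Iigp1) were called higher and 0 lower, against 4.36% and 2.83%.

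The level of each class was set beside that of macrophage-like cells, for the members and for macrophage markers. The summed level of the 33 members in epithelium-like cells was 3.57% of that of macrophage-like cells in the control library, against 0.0865% for macrophage markers such as C1qa. The corresponding shares were 10.8% and 0.116% in mesenchyme-like cells and 75.6% and 0.301% in endothelium-like cells. This holds for the sums and not for every member. Of 32 members read in control macrophage-like cells, 28 in epithelium-like, 31 in mesenchyme-like and 32 in endothelium-like cells had a share above that of the highest macrophage marker. In epithelium-like cells the median member share was 2.70%, with Stat2 at 40.9% and Irf9 at 16.2%. Cxcl10 at 0.421%, Psmb8 at 0.437%, Parp14 at 0.318% and Isg15 at 0.24% lay near the highest marker there, Fcgr3 at 0.237%. Macrophage markers can speak only to RNA from macrophage-like cells, and no endothelial marker was set beside the members. In control endothelium-like cells the median member share was 78.4%, with Irf1 at 204% and Irgm1 at 554%. The part of free RNA from any class in these low levels was not tested.

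A member was called higher or lower when it reached 10 CPM in at least 1 library, differed at least 1.5-fold on CPM + 5, and had a count ratio interval that excluded 1. In mesenchyme-like cells 4 of the 35 members were called higher and 0 lower, with 8 members at or above 10 CPM. Over all genes of that class at that level, 2.7% were called higher and 1.62% lower. In endothelium-like cells 6 members were called higher and 0 lower, with 28 at that level, against 1.25% and 1.41% of all genes. In epithelium-like cells 0 were called in either direction, with 4 at that level, against 0.668% and 0.493% of all genes. In macrophage-like cells 0 were called in either direction, with 26 at that level, against 1.54% and 0.966% of all genes.

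A count with no minimum level and no fold limit was made as well. Of members with at least 20 UMIs in the 2 libraries together, 24 of 32 in mesenchyme-like cells had a count ratio interval above 1 and 0 had one below 1. Among all genes of that class the shares were 37.5% and 15.5%. In endothelium-like cells 18 of 32 lay above 1 and 0 below, against 7.17% and 14.2% of all genes. In macrophage-like cells 3 of 31 lay above and 1 below, against 11.4% and 8.23%. In epithelium-like cells 1 of 11 lay above (Irf1) and 2 below (Ifitm3 and Ifi35), against 8.06% and 15.1%.

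**Figure D2:**
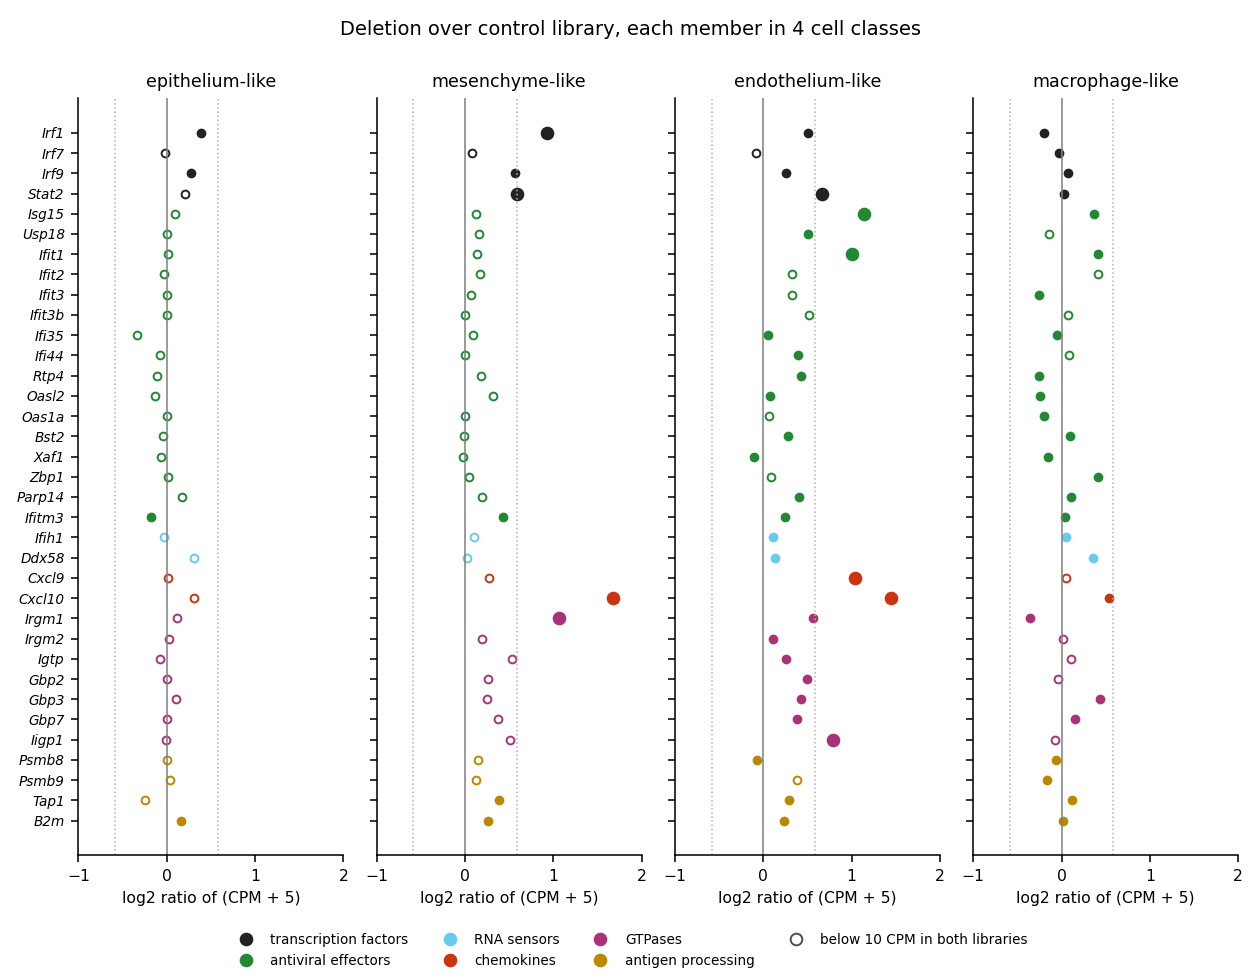
Log2 ratio of (CPM + 5), deletion over control library, for each of the 35 members in 4 cell classes; colours give the role, large points are members called higher, and open points are below 10 CPM in both libraries. Dotted lines mark 1.5-fold; the large points are Irf1, Stat2, Cxcl10 and Irgm1 in mesenchyme-like cells and Stat2, Isg15, Ifit1, Cxcl9, Cxcl10 and Iigp1 in endothelium-like cells.

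Among the transcription factors, Irf1 had the most UMIs in every one of the 4 classes. Irf1 encodes an activator that interferon gamma and inflammatory cytokines induce quickly. Its level in mesenchyme-like cells was 71.8 CPM in control and 141 CPM in deletion cells, a log2 ratio of 0.92 (count ratio 1.88 to 2.04). In endothelium-like cells Irf1 stood at 367 and 525 CPM (0.51), which is under the 1.5-fold limit. In epithelium-like cells it stood at 14.7 and 20.7 CPM (0.38, count ratio 1.11 to 1.78). Macrophage-like cells ran the other way, at 180 and 157 CPM (-0.19, count ratio 0.780 to 0.972). The order of the libraries for Irf1 was therefore not shared by all classes. With equal weights for the mesenchyme sub-clusters Irf1 was no longer called (0.45).

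Stat2 and Irf9 encode parts of the complex that binds the ISRE. Stat2 stood at 10.5 and 18.4 CPM in mesenchyme-like cells (0.59, count ratio 1.56 to 1.96), just past the 1.5-fold limit and not called with equal sub-cluster weights (0.32), and at 27.1 and 45.9 CPM in endothelium-like cells (0.67, 1.34 to 2.15). Irf9 stood at 13.8 and 22.8 CPM in mesenchyme-like cells (0.57, 1.5 to 1.83), just short of that limit. In macrophage-like cells both were close to level, with log2 ratios of 0.03 and 0.07. Irf7, which drives the second wave of type I interferon production, was at 18.3 and 17.9 CPM in macrophage-like cells and under 10 CPM in the other 3 classes.

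On the log2 scale of CPM + 5, Cxcl10 had the highest ratio of the 35 members in mesenchyme-like and in endothelium-like cells. It encodes a chemokine that draws activated T cells through the receptor CXCR3. In mesenchyme-like cells it stood at 4.60 and 25.6 CPM, on 221 and 1106 UMIs (log2 ratio 1.67, count ratio 4.81 to 6.45). Endothelium-like cells had 117 and 326 CPM (1.44, count ratio 2.53 to 3.10). Macrophage-like cells had the highest Cxcl10 level of the 4 classes in both libraries, 639 and 929 CPM (0.54, count ratio 1.38 to 1.53), and epithelium-like cells the lowest, 2.69 and 4.52 CPM. The gene overlaps Art3 on the other strand in GENCODE M21, and the strand setting of the counting is not given in the sources used here. Cxcl9, the related ligand of the same receptor that depends more on interferon gamma, had 20 and 50 UMIs in endothelium-like cells, or 4.14 and 13.8 CPM (1.04). In mesenchyme-like cells Cxcl9 had 8 and 54 UMIs.

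The GTPases are the group induced mainly by interferon gamma, and they attack vacuoles that hold parasites. Irgm1, which restrains the other immunity-related GTPases on the cell's own membranes, stood at 9.33 and 25.0 CPM in mesenchyme-like cells on 448 and 1082 UMIs (1.07, count ratio 2.40 to 3.0). In endothelium-like cells Irgm1 was at 102 and 154 CPM (0.57), just short of the 1.5-fold limit. Iigp1, an effector of the same family, was called higher in endothelium-like cells at 53.8 and 96.8 CPM (0.79, count ratio 1.53 to 2.12). Iigp1 was nearly absent from macrophage-like cells, with 3 UMIs and 1 UMI.

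All 7 GTPases had count ratio intervals above 1 in mesenchyme-like cells, where 37.5% of all genes did, and most stood at low level. Igtp stood there at 1.98 and 5.12 CPM, Gbp3 at 0.666 and 1.71, Gbp2 at 1.00 and 2.17, Gbp7 at 3.19 and 5.60, Iigp1 at 3.19 and 6.64 and Irgm2 at 2.19 and 3.19. Igtp and Irgm2 overlap on the same strand, so reads in the shared part could be given to either. Gbp7 was highest in macrophage-like cells, at 63.4 and 71.3 CPM, with an interval that included 1.

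The antiviral effectors, the largest group with 16 members, had a lower summed log2 ratio in mesenchyme-like cells than the chemokines and GTPases, and 1 of the 16 reached 10 CPM there. Bst2, which tethers budding virus to the cell, stood there at 1.92 and 1.85 CPM. Xaf1 was at 3.42 and 3.26 CPM and Ifi44 at 0.312 and 0.301 CPM. Others stood higher in the deletion library, such as Oasl2 (2.17 and 3.93 CPM), Usp18 (0.729 and 1.39), Ifit1 (0.812 and 1.39) and Parp14 (1.62 and 2.57), each with a count ratio interval above 1. Isg15, the ubiquitin-like modifier typical of a type I response, was at 1.02 and 1.55 CPM in mesenchyme-like cells. The summed log2 ratio of this group was 0.42 there, most of it from Ifitm3 (58.4 and 80.1 CPM), against 1.04 for the GTPases and 1.71 for the chemokines.

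In endothelium-like cells the effectors included 2 of the called members. Isg15 stood at 24.2 and 59.2 CPM on 117 and 214 UMIs (log2 ratio 1.14, count ratio 1.94 to 3.09). Ifit1, which binds viral RNA without the host's cap methylation, stood at 5.58 and 16.3 CPM on 27 and 59 UMIs (1.01, 1.82 to 4.79). Others of the group lay within 1.5-fold, such as Rtp4 (43.4 and 60.0 CPM), Xaf1 (40.5 and 37.3) and Bst2 (27.7 and 34.9). Ifi44 was mostly an endothelial transcript here, with 25.0 and 34.3 CPM and at most 1 UMI per library in macrophage-like cells. Ifitm3, which blocks viral entry, had the most UMIs of the group and stood at 668 and 796 CPM. It shares 14% of the 50-base words at its 3′ end with other genes.

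Some effectors were read mainly in macrophage-like cells and others were shared with endothelium-like cells. Oas1a, which makes the messenger that activates RNase L, stood at 30.0 and 25.5 CPM there and at no more than 4 UMIs per library in the other 3 classes, and 56.1% of its 3′ words are shared with Oas1g. Zbp1, a sensor of left-handed nucleic acid, stood at 13.1 and 19.1 CPM, and Isg15 at 40.0 and 53.1 CPM. Ifit3 was at 25.2 and 20.3 CPM, and Oasl2 at 36.4 and 30.1 CPM, against 11.8 and 12.7 CPM for Oasl2 in endothelium-like cells. The effectors of macrophage-like cells thus lay on both sides of level. In epithelium-like cells Usp18, Ifit3, Ifit3b and Oas1a had 0 UMIs in both libraries, which allows up to 0.288 CPM (control) and 0.438 CPM (deletion). Ifit1 had 1 UMI in each library and Isg15 1 and 3 UMIs.

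The cytosolic RNA sensors lay close to level. Ddx58, which encodes RIG-I, stood at 5.83 and 6.02 CPM in mesenchyme-like cells and at 30.6 and 34.0 CPM in endothelium-like cells. Ifih1, which encodes MDA5, was highest in macrophage-like cells, at 43.5 and 45.2 CPM. All count ratio intervals of both sensors in the 4 classes included 1.

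None of the antigen processing members was called in the 4 classes, although Tap1 and Psmb9 stood higher in the deletion library in some of them. B2m, the light chain of class I molecules, was the member with most UMIs over all kept cells, at 1919 and 1948 CPM in macrophage-like cells and at 216 and 260 CPM in mesenchyme-like cells (0.26). Tap1, which carries peptides into the endoplasmic reticulum, stood at 8.06 and 12.1 CPM in mesenchyme-like cells (0.39, count ratio 1.31 to 1.71). Psmb8, a catalytic subunit of the immunoproteasome, was at 132 and 127 CPM in macrophage-like cells and at 38.5 and 36.5 CPM in endothelium-like cells. Psmb9, which overlaps Tap1 head to head, was at 28.8 and 25.2 CPM in macrophage-like cells. At low level it stood higher in the deletion library in mesenchyme-like (0.667 and 1.16 CPM) and endothelium-like cells (3.5 and 6.1 CPM). The 14 constitutive proteasome genes had 0 called members in each of the 4 classes. Of all genes, 0.668% to 2.7% were called higher in these classes and 0.493% to 1.62% lower.

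Whether a few cells or all cells carried the difference was read after every cell had been thinned to 1900 UMIs. In mesenchyme-like cells 24.4% of 8275 control and 36.2% of 10201 deletion cells then held at least 1 UMI of the 33 members. Without thinning the shares were 46.5% and 50.6%, with the deletion cells shallower. Cells with at least 5 such UMIs made up 0.532% and 2.01%. Of the gap in mean UMIs per cell, 18.2% sat in cells with 1 UMI, 47.0% in cells with 2 to 4, 28.1% in cells with 5 to 9 and 6.68% in cells with 10 or more. The largest part of the gap thus sat in cells with 2 to 4 UMIs, which made up 7.07% of control and 12.1% of deletion cells. These class shares mix sub-clusters and cells of both sexes, which the libraries held in unequal numbers, as given below. The 1% of cells with most member UMIs held 14% and 12.3% of them. Without that 1% the log2 ratio of Cxcl10 was 1.34.

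Endothelium-like cells differed in another range. Their share with at least 1 UMI was 72.3% of 969 control and 81.4% of 772 deletion cells, and the share with at least 5 UMIs was 12.2% and 24.5%. The share with 10 or more was 1.55% and 5.57%. Of the gap in the mean, 47.0% sat in cells with 5 to 9 UMIs and 44.5% in cells with 10 or more. The highest control cell held 21 member UMIs and the highest deletion cell 25. In macrophage-like cells the shares were alike, at 83.1% and 84.7% with at least 1 UMI and 24.3% and 25.3% with at least 5. In epithelium-like cells 9.33% of 2015 and 11.5% of 1536 cells held at least 1 UMI. Thinned to 1000 UMIs, the epithelial shares were 5.80% and 5.79%.

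**Figure D3:**
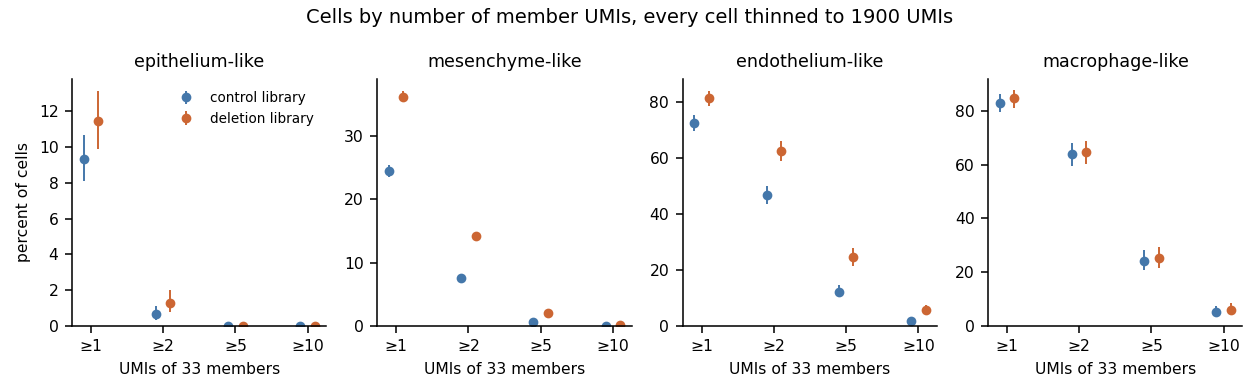
Percent of cells that held at least 1, 2, 5 or 10 UMIs of the 33 members after thinning every cell to 1900 UMIs, by class and library, with exact binomial 95% intervals. The gap between libraries is seen at every step in endothelium-like cells (12.2% and 24.5% at 5 UMIs), mostly at 1 and 2 UMIs in mesenchyme-like cells, and is small in macrophage-like cells.

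Single members showed the same split. With thinned cells, Irf1 was seen in 11.5% and 20.2% of mesenchyme-like and in 34.9% and 49.7% of endothelium-like cells. Cxcl10 was rarer, in 0.749% and 2.95% of mesenchyme-like and in 9.39% and 21.9% of endothelium-like cells. Irgm1 was seen in 1.78% and 4.14% of mesenchyme-like and in 13.6% and 19.9% of endothelium-like cells. Irf1 was thus read in a larger part of both classes than Cxcl10, which was seen in a small part of the mesenchyme-like cells.

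Within the mesenchyme the level depended on the sub-cluster. The odontoblast-like sub-cluster, led by Dspp and Dmp1, had a summed level of 74.2 and 92.7 CPM for the 33 members. A papilla-like sub-cluster led by Gldn, Ecel1 and Pappa had 544 and 767 CPM. An unnamed sub-cluster led by Grik1, Nell2, Rab3b, Nnat and Rspo4 had 427 and 748 CPM, and the follicle-like sub-cluster led by Moxd1 had 301 and 480 CPM. The deletion library was higher in these 4 sub-clusters. It was lower in the papilla-like sub-cluster led by Stk32a and Scube1, at 125 and 105 CPM (log2 ratio -0.24, count ratio 0.718 to 0.986).

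Sub-clusters were filled unequally by the libraries, and this touches the class sum. The odontoblast-like sub-cluster held 1450 control and 633 deletion cells, while the Grik1-led one held 470 and 1344 and the follicle-like one led by Pappa2 held 512 and 1394. With each sub-cluster given the same weight, the log2 ratio of the mesenchyme-like class was 0.42 in place of 0.90, and 2 members in place of 4 were called higher, against 0.242% of all genes higher and 0.0661% lower. Cxcl10 (1.30) and Irgm1 (0.63) were still called, and Irf1 (0.45) and Stat2 (0.32) were not. Cxcl10 differed within the Grik1-led sub-cluster as well, at 10.0 and 66.5 CPM on 18 and 308 UMIs. It stood at 12.0 and 43.6 CPM in the Moxd1-led sub-cluster and at 20.1 and 65.4 CPM in the Gldn-led one. In odontoblast-like cells Cxcl10 had 10 and 7 UMIs.

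The endothelium-like class also held a sub-cluster rich in these genes. It was led by Cxcl10, Selp, Tiparp, Irgm1 and Nfkbiz, held 248 control and 321 deletion cells, and had 1958 and 2759 CPM of the 33 members. Its leading genes include members although none was among the genes used for clustering. Without this sub-cluster the class had a log2 ratio of 0.53, and 4 members were called higher. The share of all genes called under that setting is not given here. Another sub-cluster was led by the mural genes Rgs5 and Notch3, and without it the ratio was 0.65. In the epithelium, the oral keratinocyte-like sub-cluster was the highest of the named ones, at 128 and 123 CPM, and ameloblast-like cells the lowest, at 32.3 and 41.1 CPM, each with a count ratio interval that included 1.

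Each library held cells of both sexes, so that cells with UMIs of Xist only (female) and cells with UMIs of Y-linked genes only (male) come from different pups of the same library. In mesenchyme-like cells the summed level of the 33 members was 181 CPM in control Xist cells, 158 in control Y-linked cells, 222 in deletion Xist cells and 393 in deletion Y-linked cells. The deletion Y-linked cells stood apart from the other 3 pools. The log2 count ratio of deletion over control was 0.29 among Xist cells and 1.31 among Y-linked cells, and their difference was 1.02 (counting interval 0.92 to 1.13). The pools held 1876, 3367, 3571 and 2863 cells. Mesenchyme-like cells with neither kind of UMI had 170 CPM (control) and 354 CPM (deletion).

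The endothelium-like cells repeated this pattern, with 1296 CPM in control Xist cells, 1274 in control Y-linked cells, 1457 in deletion Xist cells and 2566 in deletion Y-linked cells. The log2 count ratio was 0.17 among Xist and 1.01 among Y-linked cells, a difference of 0.84 (0.72 to 0.97). In macrophage-like cells the pools had 1529, 1623, 1850 and 2028 CPM, and the difference of the ratios was 0.046 (-0.07 to 0.16). In epithelium-like cells they had 59.1, 55.8, 66.8 and 76.8 CPM, and the difference was 0.28 (-0.19 to 0.76). The difference of the ratios therefore had an interval above 0 in 2 of these 4 classes, and the epithelium-like interval was wide. In mural-like cells the difference was 0.485 (0.085 to 0.885), on 59, 95, 119 and 48 cells of the pools. Sex, pup and litter cannot be told apart here, and the number of pups behind each pool is not given in the sources used here.

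**Figure D4:**
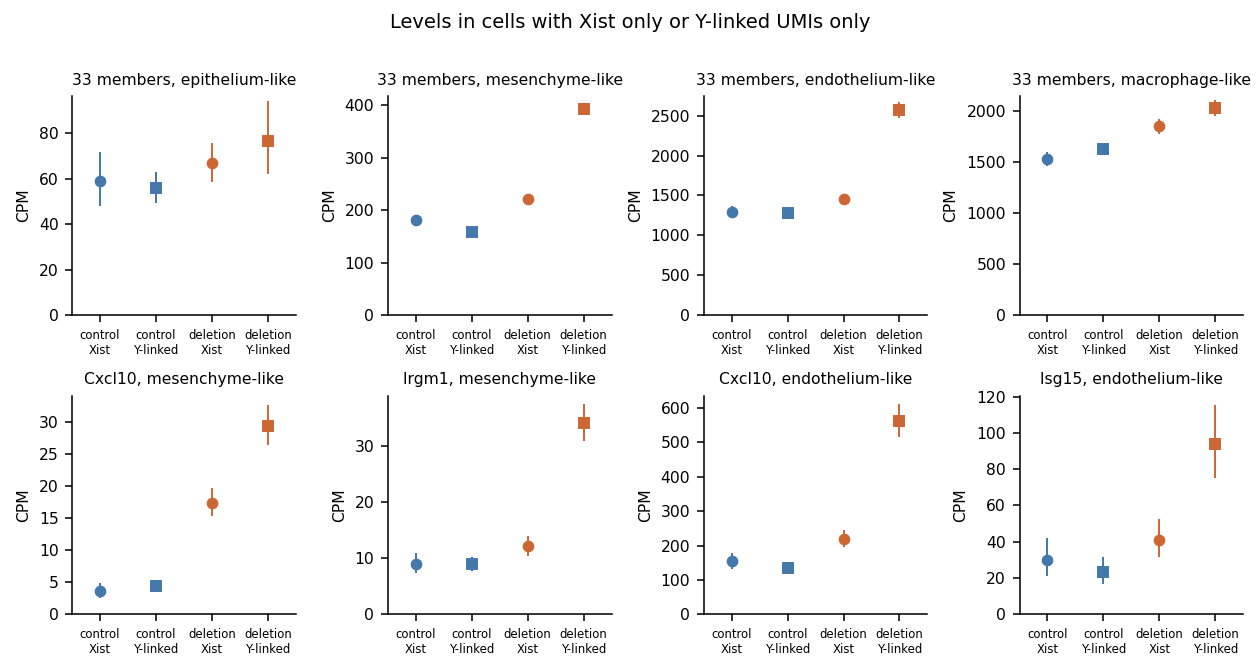
Levels (CPM) in cells with Xist UMIs only (circles) or Y-linked UMIs only (squares) of the control (blue) and deletion (orange) library, with exact Poisson 95% intervals; the upper row shows the sum of the 33 members in 4 classes and the lower row single members. The deletion Y-linked cells stand above the other 3 pools in mesenchyme-like (393 CPM) and endothelium-like (2566 CPM) cells.

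Counts of called members are given here out of the members that reached 10 CPM in either library within that sex. Among mesenchyme-like Xist cells 1 of 7 was called higher, Cxcl10, against 3.09% of all genes. Among mesenchyme-like Y-linked cells 7 of 8 were called higher (Cxcl10, Ifitm3, Irf1, Irf9, Irgm1, Stat2 and Tap1), against 6.76% of all genes. Among endothelium-like Xist cells 0 of 26 were called higher, against 2.02%. Among endothelium-like Y-linked cells 14 of 28 were called higher, against 3.12%. These added Gbp3, Gbp7, Ifih1, Ifit3, Irf1, Irgm1, Parp14 and Usp18 to the 6 called in the whole class. The corresponding counts were 1 of 26 (Cxcl10, against 4.07%) and 2 of 26 (Parp14 and Zbp1, against 3.11%) in macrophage-like cells. The first of these lay near the share of all genes. In epithelium-like cells 0 of 4 and 0 of 4 were called higher, against 2.08% and 1.74%. None was called lower in any of these 8 comparisons. The shares of all genes called lower among Xist and Y-linked cells were 1.05% and 3.01% in mesenchyme-like, 3.29% and 5.62% in endothelium-like, 2.99% and 2.6% in macrophage-like, and 2.83% and 2.7% in epithelium-like cells.

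Single members show how far the 4 pools differ. Irgm1 in mesenchyme-like cells stood at 8.98 CPM in control Xist, 8.91 in control Y-linked, 12.1 in deletion Xist and 33.9 in deletion Y-linked cells. Irf1 followed the same order at 73.3, 68.7, 98.7 and 172 CPM, and Igtp at 1.76, 1.89, 1.92 and 7.97 CPM. In these 3 genes the deletion Y-linked pool was high and the other 3 lay closer together. Cxcl10 differed, in that both deletion pools lay above both control pools, at 3.61, 4.39, 17.4 and 29.4 CPM.

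In endothelium-like cells Cxcl10 stood at 154 CPM in control Xist, 135 in control Y-linked, 220 in deletion Xist and 561 in deletion Y-linked cells. Isg15 was at 30.2, 23.3, 41.1 and 93.8 CPM in the same order. Gbp7 was at 38.6, 49.4, 32.5 and 87.4 CPM. Again the deletion Y-linked cells were the high pool. Thinned to 1900 UMIs, 38.8% of these cells held at least 5 member UMIs, against 13.7%, 13.8% and 17.4% in the other 3 pools.

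The pools were not filled by the same sub-clusters. The Grik1-led mesenchyme sub-cluster held 208, 115, 147 and 561 cells of the 4 pools. With equal weight for each of 12 mesenchyme sub-clusters, the mean level was 233, 230, 276 and 324 CPM. For 4 endothelium sub-clusters it was 1354, 1333, 1531 and 1996 CPM. The order of the 4 pools was the same as in the plain sums, and the gap between the deletion pools was smaller. Within single sub-clusters the picture was mixed. The difference of the log2 count ratios, Y-linked minus Xist, had an interval above 0 in 5 of 13 mesenchyme sub-clusters, below 0 in 1 and including 0 in 7. In the Grik1-led sub-cluster the ratios were 0.04 among Xist and 0.89 among Y-linked cells. In the Moxd1-led one, which held the most cells, they were 0.85 and 0.68, with a difference of -0.18 (-0.44 to 0.08). In an unnamed one led by Top2a and Prc1 the Xist cells had the wider gap, at 0.94 and -0.10. Of 8 endothelium sub-clusters the interval lay above 0 in 6 and included 0 in 2. Some of these pools were very small, with 3 deletion Y-linked cells in one sub-cluster and 7 in another. In the 4 sub-clusters with at least 20 cells in each pool the picture was mixed. Their differences were -0.22 (-0.54 to 0.10), 0.74 (0.09 to 1.39), 0.85 (0.66 to 1.05) and 0.07 (-0.25 to 0.39).

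Other gene groups differed between these pools in mesenchyme-like cells, in lists chosen after seeing the data. A set of 8 immediate early genes such as Fos and Egr1 stood at 6813 and 6802 CPM in control Xist and Y-linked cells and at 9540 and 9355 CPM in the deletion ones. A set of 5 NF-kB feedback and chemokine genes such as Nfkbia and Cxcl1 stood at 320, 306, 509 and 558 CPM. In mesenchyme-like cells both sets thus separated the libraries rather than the sexes. Macrophage markers stood at 9.54, 12.7, 15.6 and 11.5 CPM, highest in the deletion Xist pool. Lymphocyte markers stood at 4.72, 2.49, 2.85 and 6.06 CPM, highest in the deletion Y-linked pool. The part of these groups in the interferon result was not tested.

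In endothelium-like cells the immediate early set stood at 5841, 5681, 6596 and 6825 CPM in the 4 pools and the NF-kB set at 1645, 1341, 1501 and 1983 CPM. The NF-kB set was thus highest in the deletion Y-linked pool, and lower in deletion Xist than in control Xist cells. Macrophage markers stood there at 44.5, 31.1, 27.8 and 40.5 CPM, and lymphocyte markers of these pools are not given here. Over the whole class, erythroid markers such as Alas2 stood at 10.8 and 87.4 CPM, and mural markers at 470 and 738 CPM. The part of all these groups in the result was not tested.

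Genes that make interferon were barely read. Of 21 ligand genes, 16 including Ifng had 0 UMIs in the kept cells of both libraries, which allows up to 0.0423 CPM (control) and 0.0501 CPM (deletion). Ifnb1 had 12 and 6 UMIs, Ifnab 12 and 1, Ifnz 6 and 6, and Ifna16 and Ifnk 1 and 0 each. Receptor genes were read in all kept cells, Ifnar1 at 19.4 and 22.5 CPM, Ifnar2 at 51.3 and 47.4, Ifngr1 at 51.1 and 55.4 and Ifngr2 at 39.6 and 36.0. None of these 4 receptor genes was called in the 4 classes.

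Of 14 receptor and signalling genes, 11 reached 10 CPM in mesenchyme-like and 11 in endothelium-like cells. Of these, 1 was called higher in mesenchyme-like cells and 0 in endothelium-like cells, against 2.7% and 1.25% of all genes. It was Socs3, which encodes a feedback inhibitor of JAK kinases, at 78.9 and 133 CPM (log2 ratio 0.72).

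Of 53 other interferon-induced genes found in the files, 11 reached 10 CPM in mesenchyme-like cells, where 2.7% of all genes were called higher. The 1 called higher was Dtx3l, a ubiquitin ligase that works with PARP9, at 9.52 and 17.4 CPM (0.63). In endothelium-like cells 26 reached that level and 4 were called higher, against 1.25% of all genes. Eif2ak2, the kinase that stops translation on double-stranded RNA, stood at 34.6 and 67.2 CPM (0.87) and Irf8, a factor of myeloid development, at 22.1 and 38.7 CPM (0.69). Cmpk2 stood at 9.31 and 17.7 CPM (0.67) and Dtx3l at 54.8 and 86.9 CPM (0.62). In macrophage-like cells 33 reached that level, and 1 was called higher, Ccl5 at 3.98 and 12.1 CPM, and 1 lower, Trim14 at 17.3 and 8.50 CPM. In epithelium-like cells 0 were called.

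Some genes of class II antigen presentation stood lower in the deletion library in macrophage-like cells. Of 22 antigen presentation genes, 19 reached 10 CPM, and 4 were called lower and 0 higher, against 0.966% and 1.54% of all genes. H2-Aa, an alpha chain of class II, stood at 19.3 and 6.07 CPM (log2 ratio -1.13) and Cd74, the invariant chain, at 31.6 and 14 CPM (-0.95). H2-Ab1 and H2-Eb1 were the others called, at 19.1 and 8.19 CPM and at 10.5 and 3.34 CPM. The libraries filled the macrophage sub-clusters unequally, such as 84 and 33 cells in one and 78 and 126 in another. Values of these genes with equal weights are not given here. In mesenchyme-like cells 6 of the 22 reached 10 CPM, and 1 was called lower and 0 higher, against 1.62% and 2.7% of all genes. It was H2-K1, a class I heavy chain, at 40.1 and 23.9 CPM (-0.64), whereas its partner B2m was at 216 and 260 CPM. Of 6 IFITM relatives, 3 reached 10 CPM there, and 1 was called lower and 0 higher. It was Ifitm5, the bone relative of Ifitm3, at 232 and 127 CPM (-0.84). The libraries filled the mesenchyme sub-clusters unequally, and values of both genes with equal weights are not given here.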

How the data were processed

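Cells of 2 libraries were captured on BD Rhapsody, per the labels' protocols, and read as 3′ UMI counts. The deposited count matrices came from STARsolo on mm10, per the submitters' processing notes. Versions, strand setting and annotation of that step are not stated there. Cells with at least 500 genes and at most 20% mitochondrial UMIs were kept, doublets called by Scrublet (178 and 240) were removed per library, and 2000 variable genes without 167 interferon genes, 30 principal components, 15 neighbours and Leiden resolution 1 (0.6 within a class) gave clusters (scanpy 1.11.5, Python 3.11.15, scipy 1.17.1). Class names needed 3 detected markers; the scoring rule was set after the clusters were seen. UMIs were summed per class and library, given as CPM, and compared as log2 of (CPM + 5), with exact Poisson, conditional binomial and Clopper-Pearson 95% intervals. A value of 0 allows up to 3 counts. UMIs of 1 library are no replicates, so intervals cover counting error only. Only the 1.5-fold size rule was tested on simulated counts, which held no variation between cells, pups or libraries beyond counting error. Gene positions and overlaps came from GENCODE M21.

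The 35 members and all gene lists were chosen with earlier results of these data known. Named genes were the members called in the 4 main classes, the members with most UMIs in each role, ligand and receptor genes, and called genes of the other lists, and further members were given to account for all 35. Cells with UMIs of both Xist and Y-linked genes entered neither sex pool. Alternatives covered the pseudocount, level minimum, fold, cell filter, doublets, thinning, sub-cluster weights, the richest 1% of cells, cells with leukocyte UMIs, sex, scaling and interferon genes in the clustering; leaving out single endothelial sub-clusters and equal weights within sex pools were chosen after seeing the data.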

Additional observations from a re-analysis of the deposited data

Results flagged for a closer look

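In neutrophil-like cells the summed level of the 33 members was lower in the deletion library, with a log2 ratio of -0.57, while it was higher in mesenchyme-like, mural-like, endothelium-like, macrophage-like and epithelium-like cells. The class had 137 and 136 cells, and this difference between classes was not tested, since each genotype has 1 library. Of 17 members that reached 10 CPM there, 1 was called lower, Irf1 at 176 and 104 CPM, where 3.14% of all genes were called lower. This single call is not read as a result about the members.

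In endothelium-like cells the log2 ratio of Cxcl9 was -0.14 among cells with Xist UMIs only and 1.83 among cells with Y-linked UMIs only. The 4 pools stood at 9.24 and 3.88 CPM in the control and at 7.95 and 26.6 CPM in the deletion library. The difference between the sexes was not tested over animals.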

How the results depend on the processing

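The summed log2 ratio of the 33 members kept its sign in all 4 main classes under every alternative run. In mesenchyme-like cells it was 0.82 with thinned cells, 0.83 with median-ratio scaling (the median gene stood 0.07 higher there), 0.42 with equal sub-cluster weights, 0.28 in Xist cells and 1.29 in Y-linked cells. Members called higher there numbered 1 at a minimum of 50 CPM, 2 at a fold of 2, 2 with equal weights, 1 in Xist cells and 7 in Y-linked cells. In endothelium-like cells the sum was 0.71 with the stricter cell filter, 0.42 with equal weights, 0.17 in Xist cells, 1.01 in Y-linked cells and 0.53 without the sub-cluster led by Cxcl10, and 3, 12, 0 and 14 members were called higher at 50 CPM, with the stricter filter, in Xist and in Y-linked cells. In macrophage-like cells the sum was 0.045 with thinned cells, 0.17 with equal weights and 0.32 in Y-linked cells; 1 member was called lower with thinned cells, and 1 and 2 were called higher in Xist and Y-linked cells. In epithelium-like cells the sum was 0.43 in Y-linked cells, and its interval included 0 with equal weights (0.08, -0.13 to 0.30), in Xist cells (0.16, -0.15 to 0.49) and without the richest 1% of cells (0.17, -0.0035 to 0.35). Cxcl9 in endothelium-like cells changed sign among Xist cells, at -0.14 on few UMIs. Thinned to 1000 UMIs, the shares of cells with a member UMI were 15.4% and 23.6% in mesenchyme-like, 54.6% and 62.4% in endothelium-like and 66.9% and 66.5% in macrophage-like cells. The cause of these shifts was not tested. The shares of all genes called at 50 CPM, at a fold of 2, with the stricter filter and with thinned cells are not given here. Counts of called members under these settings are therefore not read as a result about the members. No paired analysis was possible because each genotype has 1 library. Depth limits the rare members: in epithelium-like cells 11 of 35 had at least 20 UMIs in the 2 libraries together.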
